A study of Ceratopteris richardii with 15 samples.

Results

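A set of 300 genes of the fern Ceratopteris richardii had its highest level in root and stepped down through root tip and shoot tip to leaf tip. The genes were chosen from a table of 88641 genes by their TPM (a transcript abundance corrected for gene length and scaled to the same total in every library), averaged over the 3 libraries of each tissue. A root mean of at least 20 TPM was required, with ratios of root to root tip and of root tip to shoot tip each from 1.5 to under 4 and a ratio of shoot tip to leaf tip from 1.2 to under 4. These bounds were met by 317 genes, of which the 300 with the largest ratio of root to leaf tip were kept. They make up 3.42% of the 8783 genes with a root mean of at least 20 TPM. The values of root, root tip, shoot tip and leaf tip chose the genes, so they are described below without a test. Leaf was not used in the choice and is the tissue that was tested.

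All libraries came from sporophytes of the wild type RNWT1 grown from spores and sampled 50 days after germination, with no other genotype and no treatment. There were 15 libraries, 3 for each of 5 tissues: root tip, the root with the tip removed, shoot tip, leaf tip, and the leaf with the tip removed. The words root and leaf are used here for the tipless organs. The labels do not say whether replicates came from separate plants or cultures, so the spread behind every p-value is that between these samples and may be technical.

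Fern roots, shoots and leaves grow from an apical cell at the tip, and the tissue behind a tip has largely stopped dividing and has differentiated. Root, root tip, shoot tip, leaf tip and leaf therefore differ both in organ and in how far their cells have matured. In whole-tissue RNA, fewer cells of a type and less RNA per cell cannot be told apart. Gene identifiers are in the Trinity assembler's format, and no file pairs them with names. None of them matched a reference table of 36816 C. richardii genes (0 matches), so the genes are given by identifier, with no position, function or sequence, and the tissue labels could not be checked against marker genes.

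The third root library, replicate 3, differed from replicates 1 and 2. Over the 39490 genes tested, it lowered the correlation within root to r = 0.971, against 0.99 to 0.995 within each of the other tissues. It was over 1.5-fold away from the mean of root replicates 1 and 2 for 13.7% of the 300 genes, 14 of them higher and 27 lower, which is close to the 13.1% among all genes with a root mean of at least 20 TPM. Without it, 281 of the 300 genes still met every bound. Of the 19 that did not, 11 had a ratio of root to root tip under 1.5, and root replicate 3 was above both other root libraries in 16.

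The 300 genes together made up 5.49% ± 0.17 of all TPM in root, 2.39% ± 0.0027 in root tip, 1.05% ± 0.0042 in shoot tip and 0.613% ± 0.00096 in leaf tip (SD, n = 3 each). In leaf they made up 1.95% ± 0.012 (SD, n = 3), between root tip and shoot tip. Over the 300 genes the median of the tissue means was 63.0 TPM in root, 29.0 in root tip, 14.0 in shoot tip and 8.27 in leaf tip, and 21.3 TPM in leaf. Levels spanned a wide range, with root means from 20.3 to 4563 TPM. A root mean of at least 100 TPM was found in 105 genes.

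**Figure D1:**
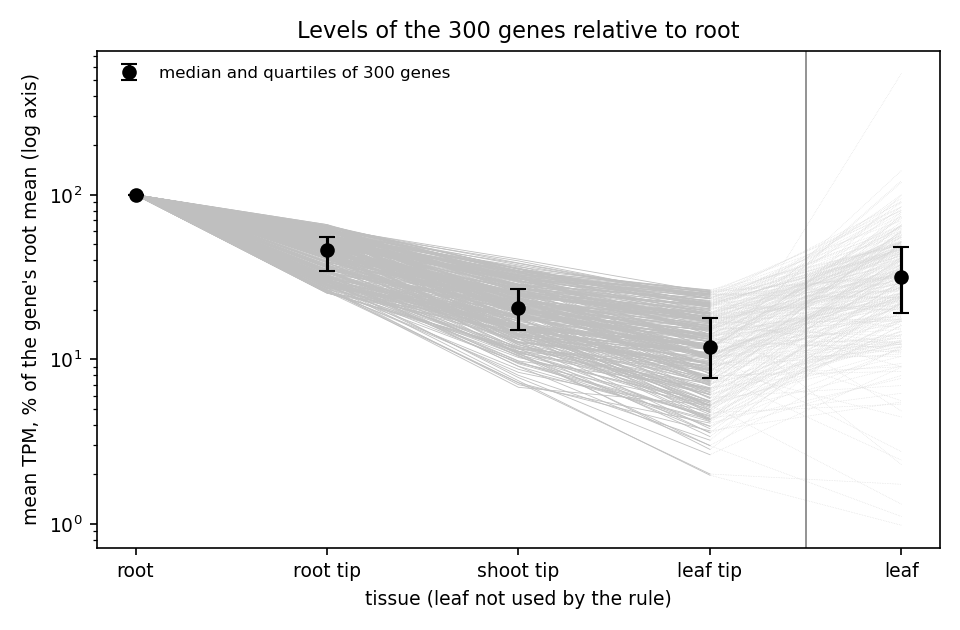
Mean TPM of each of the 300 genes in 5 tissues as a percentage of its root mean, on a log axis. Grey lines are genes, and black points with bars are the median and quartiles over genes. The order from root to leaf tip was set by the choice of genes. Leaf, right of the vertical line, was not, and its median was 0.315 of the root mean.

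The fall was not divided equally among its steps. The median ratio was 2.16 from root to root tip, 2.07 from root tip to shoot tip and 1.64 from shoot tip to leaf tip, where the lower bound was also set lower. Root to root tip was the steepest step in 146 genes, root tip to shoot tip in 115 and shoot tip to leaf tip in 39. From end to end the ratio of root to leaf tip had a median of 8.44 and ran from 3.79 to 50.7, with 111 genes at 10 or more and 31 at 20 or more.

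The libraries of neighbouring tissues seldom overlapped, which follows largely from the choice. Every root library was above every root tip library in 300 genes, and every root tip library was above every shoot tip library in 300, where 30.8% and 28.6% of the genes tested showed the same. Every shoot tip library was above every leaf tip library in 293 genes (31.9% of the genes tested), and all 3 steps were free of overlap in the same number, 293 (5.85% of the genes tested). In the other 7 genes the shoot tip and leaf tip libraries overlapped, with ratios of 1.23 to 1.58 between these tissues and leaf tip means of 3.15 to 14.6 TPM.

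Genes lay close to the bounds on both sides. The lowest root mean kept was 20.3 TPM, and the nearest gene left out had 19.97 TPM. For root to root tip the genes ran from 1.52 to 3.97, with genes left out at 1.488 and 4.004. For root tip to shoot tip they ran from 1.51 to 3.99, with genes left out at 1.499 and 4.004. The ratio of shoot tip to leaf tip ran from 1.2 to 3.86, with genes left out at 1.196 and 4.18. The last gene kept by its ratio of root to leaf tip had 3.79, and the first one dropped had 3.73. The order root, root tip, shoot tip, leaf tip was itself the most frequent of the possible orders among the 8783 genes with a root mean of at least 20 TPM, held by 2478 of them (28.2%), and the exact reverse order came next with 1197 (13.6%). These genes were taken by their root level, which favours orders that begin with root.

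The 6 genes with the highest root mean are given in full. LE_TRINITY_DN16367_c1_g1 was at 4745.87, 4708.93 and 4232.91 TPM in root, 2498.49, 2504.19 and 2500.25 in root tip, 1080.09, 1085.54 and 1084.79 in shoot tip, and 517.89, 526.13 and 519.74 in leaf tip. Its leaf libraries held 3228.69, 3331.5 and 3294.12 TPM. The 4 tissues of the fall did not overlap, and leaf lay between root and root tip, 6.30-fold above leaf tip (leaf minus leaf tip by limma, 2.65 on the log2 scale with an SE of 0.037, adjusted p = 3.1e-16). Against root the leaf difference was -0.47 on the log2 scale (adjusted p = 3.9e-08 by limma), short of the 2-fold minimum.

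LE_TRINITY_DN1687_c2_g1 had uneven steps, with ratios of 3.97, 1.71 and 3.44 from root to leaf tip. It was at 2110.98, 2104.55 and 2127.59 TPM in root, 527.7, 537.47 and 533.13 in root tip, 310.05, 316.04 and 309.46 in shoot tip, and 90.99, 90.98 and 90.06 in leaf tip. Leaf held 1137.41, 1117.75 and 1040.67 TPM, with a mean 2.06-fold above root tip and 1.92-fold below root. It was 12.1-fold above leaf tip (by limma, 3.58 on the log2 scale with an SE of 0.029, adjusted p = 4e-18). RT_TRINITY_DN10068_c1_g1 averaged 2001 ± 67.9 TPM in root, 1010 ± 7.71 in root tip, 349.8 ± 2.09 in shoot tip and 146.9 ± 0.0656 in leaf tip, and its leaf mean was 827.1 ± 6.79 TPM (SD, n = 3 each). Its leaf level was higher than leaf tip (log2 fold change 2.48, adjusted p = 1.8e-17) and lower than root (log2 fold change -1.27, adjusted p = 1.2e-14, both by limma).

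The remaining 3 abundant genes also had leaf below root. SHA_TRINITY_DN9792_c0_g1 averaged 2744 ± 82.4 TPM in root, 937.3 ± 2.83 in root tip, 347 ± 3.93 in shoot tip and 250.9 ± 3.29 in leaf tip, and its leaf mean of 935.6 ± 12 TPM lay at the root tip level (SD, n = 3 each). RT_TRINITY_DN2751_c0_g1 averaged 2324 ± 394 TPM in root, with 1868.68 TPM in replicate 3 against 2540.61 and 2561.21, and 1225 ± 30 in root tip, 507.6 ± 2.39 in shoot tip and 296.4 ± 2.17 in leaf tip, while leaf averaged 569.9 ± 10.1. RT_TRINITY_DN2391_c0_g1 averaged 2315 ± 185 TPM in root, 630.3 ± 9.53 in root tip, 162.3 ± 4.29 in shoot tip and 94.79 ± 0.436 in leaf tip, while leaf averaged 177.2 ± 3.48. In all 3, leaf was lower than root by the limma test, with log2 fold changes of -1.55, -2.01 and -3.70 and adjusted p of 1.8e-15, 5.7e-11 and 1.1e-16. The fit uses a single spread per gene over all tissues. Over the 300 genes the median SD, as a percentage of the mean, was 8.45% in root and 3.42% in leaf. A p-value of leaf against root can therefore be too small.

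**Figure D2:**
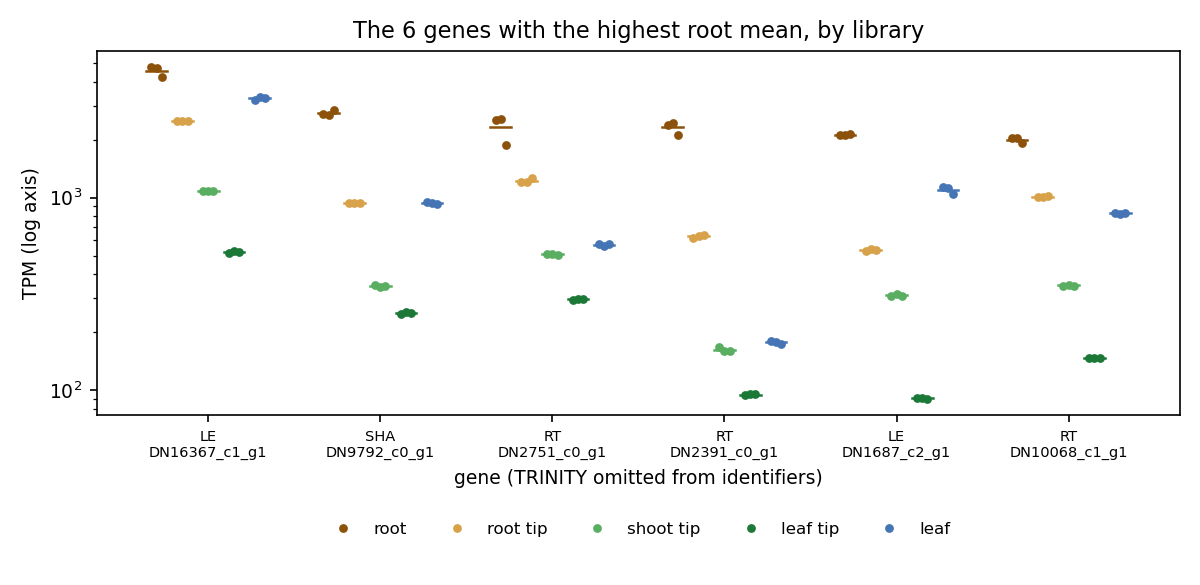
TPM on a log axis in each library of the 6 genes with the highest root mean. Points are libraries, 3 per tissue, and short lines are tissue means. Root, root tip, shoot tip and leaf tip descend in this order in each gene, and leaf ranges from 177.2 TPM to 3285 TPM.

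The 4 genes with the widest span from root to leaf tip were low in leaf tip. RT_TRINITY_DN892_c0_g1 held 43.22, 41.5 and 62.25 TPM in root, 14.41, 13.63 and 13.68 in root tip, 3.04, 3.95 and 3.89 in shoot tip, and 0.91, 0.97 and 1.02 in leaf tip, a 50.7-fold span. Root replicate 3 was its highest library, and without it the span was 43.8-fold. RO_TRINITY_DN130689_c1_g1 spanned 49.8-fold, from 97.63 ± 42.2 TPM in root to 1.96 ± 0.135 in leaf tip (SD, n = 3), and 37.4-fold without root replicate 3, which held 146.39 TPM against 71.88 and 74.63. SHA_TRINITY_DN100_c0_g3 spanned 38.0-fold and RO_TRINITY_DN1447_c0_g1 spanned 35.3-fold. The leaf levels of these last genes, 16.85 ± 0.52 and 22.81 ± 1.1 TPM, were higher than their leaf tip levels of 4.953 ± 0.356 and 2.963 ± 0.201 TPM (log2 fold change 1.59, adjusted p = 2.7e-08, and 2.59, adjusted p = 1.1e-14, by limma).

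At the shallow end were RO_TRINITY_DN3691_c0_g1, RT_TRINITY_DN24264_c1_g1 and RO_TRINITY_DN132285_c0_g1, with spans of 3.79-fold, 3.82-fold and 3.83-fold. The first of these averaged 93.84 ± 2.25 TPM in root, 51.52 ± 1.79 in root tip, 32.12 ± 1.22 in shoot tip and 24.77 ± 0.96 in leaf tip, with 46.53 ± 0.752 in leaf (SD, n = 3 each). The most even steps were those of SHA_TRINITY_DN4040_c0_g1, with ratios of 1.68, 1.69 and 1.70 from root to leaf tip. Its level lay close to the root minimum, at 20.87, 23.05 and 18.32 TPM in root and 3.74, 4.37 and 4.78 in leaf tip, and its leaf libraries at 3.63, 4.21 and 4.68 TPM overlapped those of leaf tip. LA_TRINITY_DN525_c0_g1 had steps of 1.62, 1.65 and 1.60 at 299.9 ± 33.9 TPM in root, and LA_TRINITY_DN8716_c0_g1 had 1.60, 1.54 and 1.59 at 85.43 ± 3.07 TPM in root. Leaf was lower than root in each of these even genes (log2 fold change -2.07, -1.53 and -1.60, adjusted p = 1.1e-10, 9.3e-12 and 9e-13 by limma).

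Leaf, the tissue left free, usually lay inside the range between root and leaf tip. Its mean was at or above shoot tip and below root tip in 147 of the 300 genes, at or above root tip and below root in 73, and at or above leaf tip and below shoot tip in 51. It was at or above root in 4 genes and below leaf tip in 25. The mean of leaf was thus above that of leaf tip in 275 genes (91.7%) and below that of root in 296 (98.7%), while among all genes with a root mean of at least 20 TPM these shares were 47.4% and 78.0%. Among those of them outside the set but in the same order, the shares were nearer. They were 85.0% and 97.9% in 902 genes with a step of 4 or more. In 1259 genes with a step under the lower bound they were 71.2% and 93.4%. Every leaf library was above every leaf tip library in 262 genes (25.3% of the genes tested) and below every leaf tip library in 18 (55.1%). Every leaf library was below every root library in 288 genes (46.1% of the genes tested) and above every root library in 4 (26.2%).

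Tests of leaf used log2(TPM + 1) in limma over the 39490 genes with at least 1 TPM in at least 3 libraries, a filter that all 300 passed, and calls required a Benjamini-Hochberg adjusted p under 0.05 together with a fitted difference of at least 2-fold. The low end of each comparison with leaf tip and the high end of each comparison with root were fixed by the choice of genes, so the counts describe the set and are not evidence about it. Against leaf tip, leaf was called higher in 181 genes (60.3%) and lower in 6, where 11.2% and 25.3% of the genes tested were called higher and lower. Of the other 113 genes, 88 had an adjusted p under 0.05 but a difference under 2-fold. The median log2 difference, leaf minus leaf tip, was 1.18 for the 300 genes and -0.38 for the genes tested.

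Against root, leaf was called lower in 224 genes (74.7%) and higher in 1, where 18.1% and 12.6% of the genes tested were called lower and higher. The median log2 difference, leaf minus root, was -1.61 for the 300 genes and -0.22 for the genes tested. Joining both comparisons, leaf was called above leaf tip and below root in 107 genes (2.47% of the genes tested), below root with no call against leaf tip in 111 (12.8%), and above leaf tip with no call against root in 73 (3.99%). A further 6 genes were called below both ends (2.89% of the genes tested), 1 above both (4.74%), and 2 were called against neither (44.8%). Without root replicate 3, leaf was called lower than root in 225 of the 300 genes, and in 214 of the 281 that still met the bounds.

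**Figure D3:**
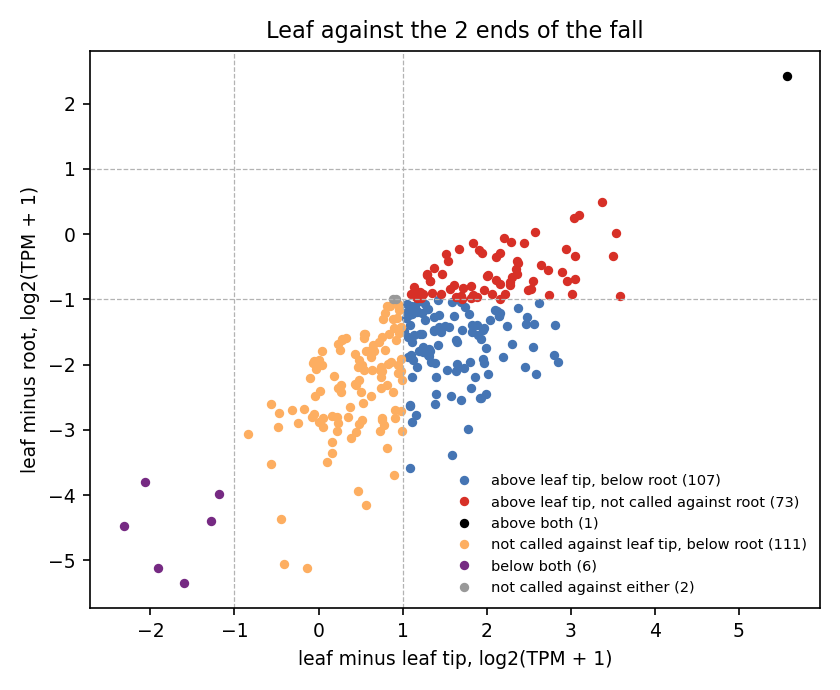
Fitted log2 differences of leaf from leaf tip (horizontal) and from root (vertical), on the log2(TPM + 1) scale, for the 300 genes. Colours give the calls and dashed lines mark 2-fold. Most genes lie right of 0 and below 0, with 107 called inside both ends, 1 gene called above both and 6 called below both.

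The differences from the 2 tissues in the middle of the fall were smaller. The choice of genes also fixed the place of these 2 tissues between the ends. These counts too describe the set and are not evidence about it. Against shoot tip, leaf was called higher in 82 genes and lower in 12 (10.3% and 26.8% of the genes tested), with a median log2 difference of 0.56. After median-ratio scaling leaf was called higher than shoot tip in 167 genes (16.1% of the genes tested), with a median of 1.08. After quantile normalization it was called higher in 142 genes (16.6% of the genes tested), with a median of 0.94. Each scaling moved the median of all genes tested by 0.44. Against root tip, leaf was called higher in 12 and lower in 90 (10.4% and 23.3% of the genes tested), with a median log2 difference of -0.43. No call against either was made in 128 genes (51.6% of the genes tested). The balance against root tip depended on the scaling of the libraries. As deposited 11.8% of the calls were higher in leaf, after median-ratio scaling 35.1% (26 higher, 48 lower), and after quantile normalization 28.6% (20 higher, 50 lower). Of the genes tested, 15.5% were called higher and 15.6% lower after the first scaling, and 15.2% and 15.9% after the second. These scalings moved the median of all genes tested, leaf minus root tip, by 0.38 and 0.35 on the log2 scale, and the median of the 300 genes became 0.035 after the first and -0.094 after the second.

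A few genes were as high in leaf as in root or higher. LE_TRINITY_DN52035_c0_g1 held 131.46, 121.55 and 127.71 TPM in leaf, against 25.45, 26.16 and 17.95 in root, 9.62, 7.89 and 8.04 in root tip, 3.39, 3.29 and 3.74 in shoot tip, and 1.66, 1.69 and 1.72 in leaf tip. It was the 1 gene called higher in leaf than in each of the other 4 tissues, a call made in 3.74% of the genes tested, and lay 5.47-fold above root (log2 fold change 2.42, SE 0.11, adjusted p = 1.5e-10) and 75.1-fold above leaf tip (log2 fold change 5.57, adjusted p = 1.5e-14, both by limma). RO_TRINITY_DN130251_c0_g1 held 75.22, 68.28 and 70.26 TPM in leaf and 53.6, 58.23 and 40.47 in root, a difference of 0.50 on the log2 scale that was short of 2-fold (adjusted p = 0.00074 by limma). RO_TRINITY_DN3206_c0_g1 averaged 38.89 ± 1.33 TPM in leaf and 31.89 ± 4.41 in root, and RO_TRINITY_DN4962_c0_g1 34.64 ± 0.95 and 29.11 ± 2.83 (SD, n = 3 each). RO_TRINITY_DN4476_c0_g1 averaged 51.23 ± 1.21 TPM in leaf and 51.3 ± 12.6 in root, with 65.85 TPM in replicate 3 and 44.02 in each of the others. Without that library its ratio of root to root tip was 1.33, under the bound. In leaf tip these last 4 genes lay between 3.343 and 7.77 TPM, and leaf was called higher than leaf tip in each, by log2 fold changes of 2.58 to 3.38.

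At the other end were genes with leaf below all tissues of the fall. SHA_TRINITY_DN3252_c0_g1 was the clearest case, at 674.3, 689.71 and 590.43 TPM in root, 330.4, 340.16 and 342.41 in root tip, 146.88, 144.13 and 150.96 in shoot tip, 68.05, 71.56 and 69.23 in leaf tip, with only 18.57, 16.72 and 18.34 TPM in leaf. No libraries of different tissues overlapped, and leaf was 36.4-fold below root (log2 fold change -5.11, SE 0.053, adjusted p = 2.3e-17) and called below leaf tip (log2 fold change -1.90, adjusted p = 4e-13, both by limma). In all, leaf was called below each of the other 4 tissues in 6 genes (2% of the genes tested).

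RO_TRINITY_DN1061_c0_g1 and LA_TRINITY_DN7223_c0_g3 were 2 of these 6, and their place in the set rested on root replicate 3. The former held 311.33 TPM in root replicate 3 against 74.68 and 76.23 in the others, with 66.92, 65.51 and 61.85 in root tip. The latter held 108.52 TPM against 34.78 and 33.98, with 24.48, 25.99 and 23.29 in root tip. Without root replicate 3 the ratios of root to root tip were 1.17 and 1.40, under the bound of 1.5. Leaf, at 2.027 ± 0.253 and 1.44 ± 0.156 TPM, was lower than leaf tip, at 8.153 ± 0.472 and 4.903 ± 0.295 TPM, with log2 fold changes of -1.60 (adjusted p = 0.0018) and -1.28 (adjusted p = 0.0019, both by limma). These calls also stood without root replicate 3 (adjusted p = 2.3e-10 and 4.5e-10 by limma). The fit uses 1 spread per gene over all 5 tissues. Root replicate 3 therefore enters these p-values although root is not in the comparison. The calls did not stand in every setting. With a pseudocount of 5 the log2 differences were -0.90 and -0.62, short of the 2-fold minimum, and after median-ratio scaling and quantile normalization that of LA_TRINITY_DN7223_c0_g3 was -0.88 and -0.84. SHA_TRINITY_DN11407_c0_g1 behaved alike in root, with 900.29 TPM in replicate 3 against 333.02 and 334.41, a ratio of root to root tip of 1.26 without it, and 71.87 ± 1.35 TPM in leaf against 81.09 ± 1.33 in leaf tip, which was not called. Its leaf level was lower than its root level, with a log2 fold change of -2.68 (adjusted p = 5.6e-07 by limma) and of -2.20 without root replicate 3.

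**Figure D4:**
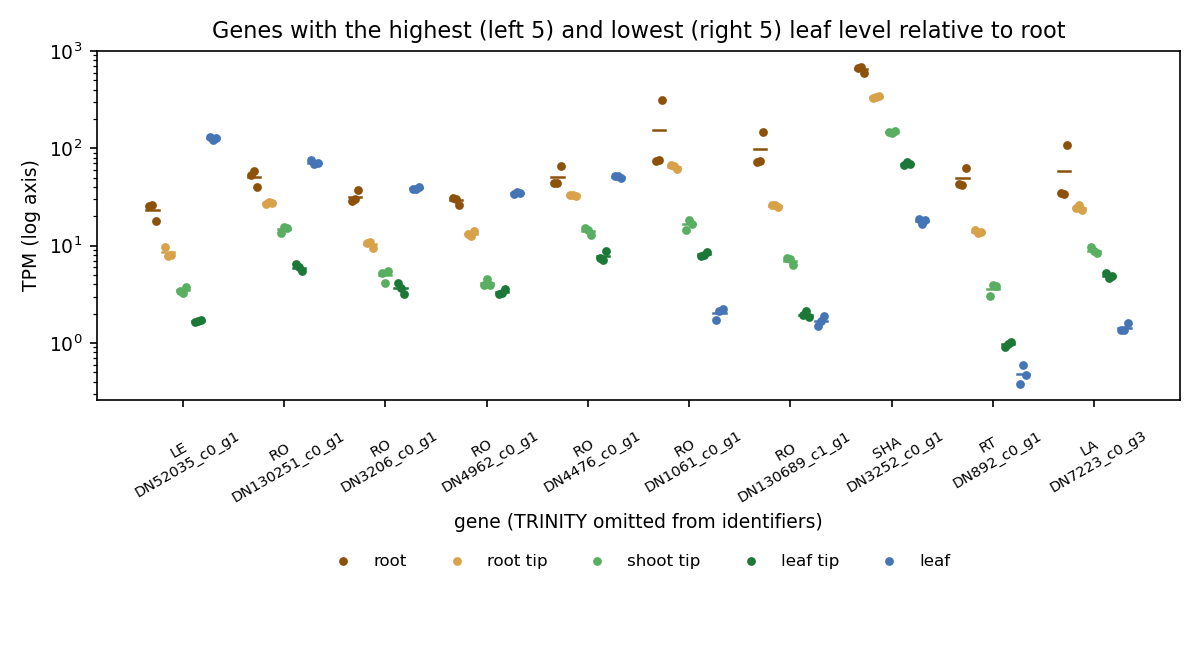
TPM on a log axis in each library of the 5 genes with the highest and the 5 with the lowest leaf level relative to root. Points are libraries, 3 per tissue, and short lines are tissue means. LE_TRINITY_DN52035_c0_g1, at the far left, has its highest libraries in leaf, and root replicate 3 stands above the other root libraries in RO_TRINITY_DN1061_c0_g1 and LA_TRINITY_DN7223_c0_g3.

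The 25 genes with leaf below leaf tip were set beside the other genes for depth of the fall and for root replicate 3. Their median root mean was 47.8 TPM and their median leaf mean 4.11 TPM, and their median ratio of root to leaf tip was 6.44. In the 77 genes with leaf at or above root tip these medians were 59.9 TPM, 38.9 TPM and 8.48. The median ratio of root to leaf tip was 9.66 in the 51 genes with leaf from leaf tip to under shoot tip and 8.54 in the 147 with leaf from shoot tip to under root tip. Root replicate 3 was over 1.5-fold above the mean of replicates 1 and 2 in 6 of the 25 genes and over 1.5-fold below in 4, while in the 77 it was above in 3 and below in 4. It was above in 2 and below in 6 of the 51, and above in 3 and below in 13 of the 147. Their part in the result was not tested.

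The older part of an organ was above its tip in root by choice, and in leaf for most genes, but the sizes were only weakly related. Across the 300 genes the log2 ratio of leaf to leaf tip and that of root to root tip correlated with r = 0.134 and rho = 0.143, where all values share the same libraries and the second ratio was held within bounds. Across the same genes leaf levels had an r of 0.811 with root, 0.825 with root tip, 0.844 with shoot tip and 0.825 with leaf tip on the log2 scale. The interaction contrast of limma compared the signed difference, older part minus tip, between leaf and root. Root, root tip and leaf tip values chose the genes, so its counts describe the set and are not evidence about it. A smaller difference can also be one of reversed sign, with leaf below leaf tip. Of all genes tested, 14.1% and 24.2% were called larger and smaller in leaf. Among the 300 genes the difference was larger in leaf for 51 (17%) and smaller for 37 (12.3%). The other 212 were not called, of which 144 had an adjusted p under 0.05 with a difference of under 2-fold. Without root replicate 3 the counts were 51 larger and 39 smaller. The median interaction was 0.13 for the 300 genes and -0.37 for the genes tested. Of the calls, 58.0% had the larger difference in leaf with the values as deposited. Median-ratio scaling made this 73.6% (67 and 24 genes) and quantile normalization 75.6% (62 and 20 genes). Of the genes tested, 17.2% and 19.8% were called larger and smaller after the first scaling, and 19.5% and 14.6% after the second. Raising the pseudocount to 5 left 24 genes larger in leaf and 29 smaller. The shares of the genes tested were not taken at that pseudocount, so this balance cannot be compared with theirs.

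**Figure D5:**
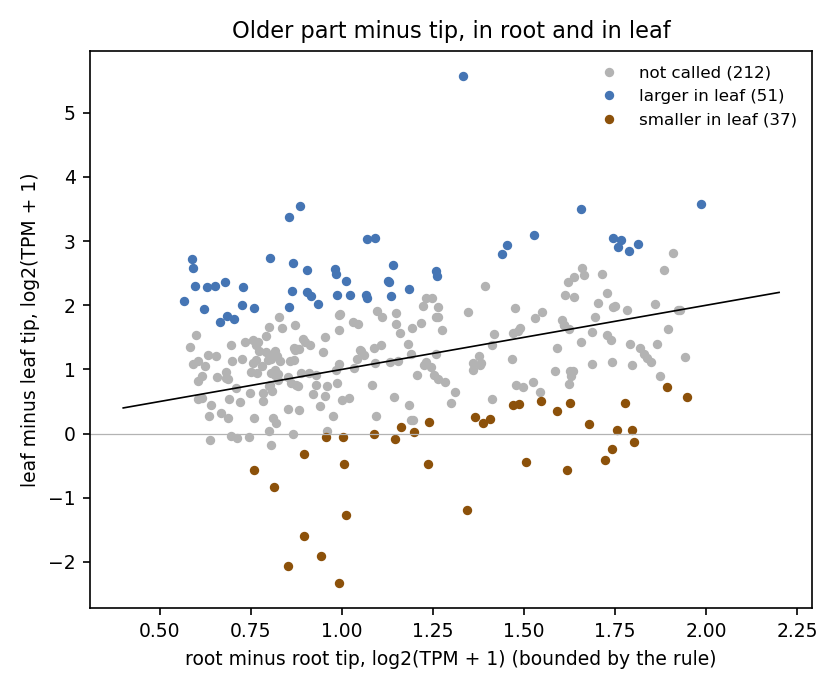
Fitted log2 difference of the older part from the tip in root (horizontal, held within bounds by the choice of genes) and in leaf (vertical) for the 300 genes, on the log2(TPM + 1) scale. The diagonal marks equal differences. The 51 genes called larger in leaf lie above it and the 37 called smaller lie below, and the highest point is LE_TRINITY_DN52035_c0_g1.

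Genes in the same order with other step sizes give a point of comparison. In 1259 genes that held the order with a root mean of at least 20 TPM but had a step under the lower bound, the median ratio of leaf to leaf tip was 1.28, and leaf was called higher than leaf tip in 18.9% and lower than root in 39.2%. In 902 genes with a step of 4 or more, leaf was called higher than leaf tip in 54.0% and lower than root in 90.7%. In the 300 genes these shares were 60.3% and 74.7%, with a median ratio of leaf to leaf tip of 2.43. Whether these sets differ was not tested.

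The opposite gradient was taken by the same bounds in reverse, with a leaf tip mean of at least 20 TPM, and held 232 genes. There the leaf mean was above leaf tip in 21 genes and below root in 70. Leaf was called lower than leaf tip in 159 of the 232 genes and higher than root in 116 (25.3% and 12.6% of the genes tested). These counts, like those of the 300 genes, depend on ends that the bounds had fixed.

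Identifiers of the set carried all 5 tissue prefixes. The prefix RO, which matches the root columns, was on 109 genes (36.3%), RT on 72 (24%), SHA on 42 (14%), LE on 39 (13%) and LA on 38 (12.7%). Among all genes with a root mean of at least 20 TPM, RO made up 28.3% and LA 20.2%. No 2 of the 300 genes came from the same Trinity cluster (0 genes), and 60 (20%) shared a cluster with other genes of the table, as did 18.1% of the whole table. Of the 80 other genes in those clusters, 34 had a root mean under 1 TPM and 21 had one of at least 20 TPM, of which 11 also stepped down from root to leaf tip in the same order. Values of genes with close copies are uncertain, since reads can be split between them.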

How the data were processed

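The authors deposited 1 table of TPM values for 15 libraries. RSEM 1.3.2 is listed in the submitters' processing notes, as are Bowtie2 2.3.4.3 and Trim Galore 0.5.0, with no role or order given. The depth of each library is unknown, since TPM keeps no read counts, so no counting interval is given. Leaf columns matched the tissue but no single sample, and are called leaf library a, b and c. The genes, lists and tests were chosen with earlier results of these data known.

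Tissue means and ratios were taken on TPM. Tests used limma 3.58.1 in R 4.3.3 on log2(TPM + 1), with 1 mean per tissue over all 15 libraries, an intensity trend and Benjamini-Hochberg adjustment over 39490 genes; fold changes on this scale understate low genes. The procedure was tested on simulated data with 1 spread per gene and changes in leaf only. A deviating root library was not simulated. Alternatives changed the pseudocount, filter, scaling, trend, tissues fitted, bounds and libraries. Genes named are the 6 with the highest root mean, the 4 largest and 3 smallest ratios of root to leaf tip, the 3 with the most even steps, the 5 highest and 5 lowest in leaf relative to root, and the 3 with root replicate 3 farthest from the other root libraries.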

Additional observations from a re-analysis of the deposited data

Results flagged for a closer look

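The signed difference, older part minus tip, was compared between leaf and root by the interaction contrast of limma. Root, root tip and leaf tip had been used to choose the genes, so the counts describe the set and are not evidence about it. The difference was larger in leaf for 51 of the 300 genes (14.1% of the genes tested were called so) and smaller for 37 (24.2%). Among the genes named, the interaction was 4.24 on the log2 scale in LE_TRINITY_DN52035_c0_g1, 2.52 in RO_TRINITY_DN130251_c0_g1, 1.99 in RO_TRINITY_DN4476_c0_g1 and 1.97 in RO_TRINITY_DN4962_c0_g1. It was 1.79 in LE_TRINITY_DN16367_c1_g1, 1.60 in LE_TRINITY_DN1687_c2_g1, 1.57 in RO_TRINITY_DN3206_c0_g1 and 1.4999 in RT_TRINITY_DN10068_c1_g1.

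The interaction was called negative in 5 named genes. In all 5 the leaf mean was below the leaf tip mean, so the difference had the opposite sign from that in root. Leaf was not called against leaf tip in RT_TRINITY_DN892_c0_g1 and RO_TRINITY_DN130689_c1_g1. The interaction was -2.85 in SHA_TRINITY_DN3252_c0_g1, -2.49 in RO_TRINITY_DN1061_c0_g1, -2.29 in LA_TRINITY_DN7223_c0_g3, -2.13 in RT_TRINITY_DN892_c0_g1 and -1.94 in RO_TRINITY_DN130689_c1_g1. In the last 4 of these genes root replicate 3 was the highest root library, and without it the values were -1.82, -1.74, -1.95 and -1.61, each still called. Other named genes had negative values short of a call, among them RT_TRINITY_DN2391_c0_g1, which was called at -1.04 without root replicate 3. No group of 3 libraries was tested for outlying samples.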

How the results depend on the processing

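With a pseudocount of 5, leaf was called higher than leaf tip in 133 genes and lower than leaf tip in 3. It was called lower than shoot tip in 7 and lower than root in 212. The signed difference, older part minus tip, was then larger in leaf than in root in 24 genes and smaller in 29. With a pseudocount of 1 these were 51 and 37. The shares of the genes tested were not taken at a pseudocount of 5, so these counts cannot be set against them. After median-ratio scaling leaf was called higher than shoot tip in 167 genes, higher than root tip in 26 and lower than root tip in 48. The difference was then smaller in leaf than in root in 24. After quantile normalization these counts were 142, 20, 50 and 20. The matching shares of the genes tested were 16.1%, 15.5%, 15.6% and 19.8% after median-ratio scaling. They were 16.6%, 15.2%, 15.9% and 14.6% after quantile normalization. The cause of these changes was not tested. Median-ratio scaling moved the median of all genes tested by 0.44 for leaf minus leaf tip, 0.44 for leaf minus shoot tip, 0.16 for leaf minus root and 0.23 for the interaction. A bound of 1.5 on shoot tip to leaf tip left 185 genes, and no upper bound 919. After median-ratio scaling 244 of the 300 genes met the bounds, and after quantile normalization 246.

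Signs turned in 4 named genes, none of them called. For leaf minus leaf tip, RO_TRINITY_DN130689_c1_g1 went to 0.23 and 0.27 after median-ratio scaling and quantile normalization, SHA_TRINITY_DN11407_c0_g1 to 0.38 and 0.091, and SHA_TRINITY_DN4040_c0_g1 to 0.43 and 0.41, and over the omission of single libraries it ran from -0.11 to 0.043, above 0 without leaf tip replicate 3 or leaf library a. For leaf minus root, RO_TRINITY_DN4476_c0_g1 ran from -0.071 without root replicate 1 or 2 to 0.21 without root replicate 3.

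Leaving out each library in turn gave 180 to 183 genes with leaf called higher than leaf tip, 224 to 231 lower than root, 49 to 52 with the larger difference in leaf and 34 to 39 with the smaller. Scaling moved these counts further. After median-ratio scaling leaf was called higher than leaf tip in 244 genes and lower than root in 203 (17.5% and 16.9% of the genes tested). After quantile normalization it was called so in 223 and 199 (16.9% and 13.8%). No paired analysis was possible because the leaf columns carry no replicate number that could be matched to a single leaf sample. Unknown depth limits what can be said of genes near 1 TPM.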
